A study of Homo sapiens with 12 samples.

Results

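The 4 tissue inhibitors of metalloproteinases (TIMP1, TIMP2, TIMP3 and TIMP4) and 4 of the matrix metalloproteinases that they hold in check (MMP2, MMP9, MMP14 and MMP25) were followed in U937 cells given decitabine (DAC), given all-trans retinoic acid (termed ATRA) or given both. All rows of the deposited RNA-seq table that carry one of these 8 gene symbols were taken, which gave 31 transcripts, 22 of them with reads, out of 197782 transcripts, 68785 with reads, and 44786 gene symbols in all. The family was chosen by a readout, because TIMP3 was among the transcripts most induced with DAC. TIMP3 ranked 3 of 7620 genes by the log2 fold change of DAC against untreated cells. The values of DAC against untreated cells are therefore given below as a description and carry no test for any member. TIMP3 is described without a test in all comparisons.

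Matrix metalloproteinases are zinc-dependent endopeptidases that cut collagens, laminins and other proteins of the extracellular matrix, and that also release growth factors and cytokines. TIMPs bind the active site of these enzymes and block them, and TIMP3, which stays bound to the matrix, also inhibits several ADAM and ADAMTS proteases. In monocytic and leukemic cells, secreted gelatinases such as MMP9 and membrane-anchored enzymes such as MMP14 are known for a role in migration through tissue. Once built into DNA in place of cytosine, DAC traps the DNA methyltransferases, whereas ATRA acts through the nuclear receptors for retinoic acid. TIMP3 is a known example of a gene that is silenced by promoter methylation in several tumor types.

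U937 is a myelomonocytic leukemia line of human origin. The 12 libraries comprised 3 each of untreated cells (libraries 1 to 3), cells given DAC at 200 nM (libraries 4 to 6), cells given ATRA at 1 µM (libraries 7 to 9) and cells given both agents (libraries 10 to 12). The labels give 3 days of treatment and a time of 72 h for the treated cells but 96 h for the untreated cells, so time and treatment cannot be told apart in comparisons with untreated cells if the labels hold, and the published methods name no separate harvest time for untreated cells. The published methods have ATRA added only with the last dose of DAC, so that cells may have been exposed to ATRA for less time than the labels give. All groups were labelled as grown with 20% FCS and 5 ng/ml GM-CSF, whereas the published methods give less serum and name no GM-CSF. Triplicates of other U937 assays are termed technical in the published text, which does not say how the RNA-seq replicates were made. The p-values therefore measure only the spread between these samples, which may be technical. Of the 10 myelomonocytic markers examined, 6 had a mean of at least 10 normalized reads. These were led by MPO and CD4 and included SPI1, LYZ, ITGAM and FCGR1A. The values of CD33, CD68 and CSF1R were near 0, and PTPRC had no reads. Reads on bases shared by several transcripts may have been left uncounted, so these values do not show that the genes are silent.

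The libraries held between 8042435 and 10683593 counted reads. The deposited values are these counts divided by a size factor for each library, termed normalized read counts here, and 3 reads correspond to 2.50 to 3.71 normalized reads. A gene is represented by the protein-coding transcript that had its highest mean, termed the leading transcript. Tests are from limma, fitted to 9016 protein-coding transcripts as log2(normalized read count + 1), and a Benjamini-Hochberg adjusted p under 0.01 is the threshold. Log2 fold changes on this scale understate the change of transcripts with few reads. The counting mode is not stated, and reads on bases shared by several transcripts may have been left uncounted, so genes with overlapping transcripts may be read from a part of their sequence. The whole exonic sequence of TIMP3, TIMP4 and MMP9 lies outside other transcripts of the same strand. For the other members this holds for 394 of 1095 bases in TIMP1, 429 of 3652 in TIMP2, 887 of 3514 in MMP2, 2051 of 3701 in MMP14 and 9 of 3674 in MMP25 by GENCODE 44. For MMP25, 2267 reads were counted over the 12 libraries despite these 9 bases, and whether this comes from other gene models or from the counting mode was not tested. The order of levels between genes is therefore given for TIMP3, TIMP4 and MMP9 alone. Of their exonic bases, 430 in MMP9, 170 in TIMP4 and 0 in TIMP3 lie in exons of the opposite strand. Their levels may be lowered unequally if the counting did not use strand.

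Promoter sequences were available in the RefSeq table (GRCh38.p14) for 4 of the 8 members, and TIMP2, MMP2, MMP9 and MMP25 were not in it. They are shown because all 4 genes were higher in every library with DAC than in every library without it, and because DAC acts on cytosine methylation at CpG dinucleotides. Each line gives the 250 bases before the gene start in RefSeq, 5′ to 3′ on the strand of the gene, with CpG dinucleotides in capitals. For TIMP1 the last 28 of these bases lie within the counted transcript, which starts further upstream.
TIMP1: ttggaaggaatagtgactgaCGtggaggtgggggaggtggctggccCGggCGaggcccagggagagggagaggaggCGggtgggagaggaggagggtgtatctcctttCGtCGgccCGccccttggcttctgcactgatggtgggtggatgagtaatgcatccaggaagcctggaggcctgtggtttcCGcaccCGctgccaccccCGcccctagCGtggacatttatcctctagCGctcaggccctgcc
TIMP3: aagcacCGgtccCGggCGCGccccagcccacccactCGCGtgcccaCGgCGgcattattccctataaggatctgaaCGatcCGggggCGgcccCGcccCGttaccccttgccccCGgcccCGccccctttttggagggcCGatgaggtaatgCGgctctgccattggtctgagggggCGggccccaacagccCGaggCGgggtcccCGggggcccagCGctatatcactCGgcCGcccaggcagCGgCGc
TIMP4: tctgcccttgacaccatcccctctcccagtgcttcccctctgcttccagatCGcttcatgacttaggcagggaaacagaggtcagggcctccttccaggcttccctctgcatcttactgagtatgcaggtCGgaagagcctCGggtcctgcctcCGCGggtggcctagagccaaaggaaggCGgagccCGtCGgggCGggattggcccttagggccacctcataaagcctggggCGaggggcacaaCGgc
MMP14: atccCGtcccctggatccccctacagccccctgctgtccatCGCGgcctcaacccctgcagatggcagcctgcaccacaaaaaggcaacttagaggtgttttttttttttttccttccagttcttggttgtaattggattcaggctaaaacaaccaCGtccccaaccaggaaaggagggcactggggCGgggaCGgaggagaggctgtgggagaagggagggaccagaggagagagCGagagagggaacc

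These stretches lie at chrX:47582186-47582435 on the plus strand for TIMP1, chr22:32801455-32801704 on the plus strand for TIMP3, chr3:12158913-12159162 on the minus strand for TIMP4 and chr14:22836335-22836584 on the plus strand for MMP14. They hold 26 CpGs in TIMP3, 12 in TIMP1, 11 in TIMP4 and 7 in MMP14. In the window of 300 bases that also takes in the 50 bases after the start, TIMP3 had 31 CpGs, a GC content of 72.7% and a ratio of observed to expected CpGs of 0.788. As many CpGs or more were found in 20.7% of the 35116 promoters in the table, whose median was 14. TIMP1 had 16 CpGs in this window, TIMP4 had 12 and MMP14 had 10, with ratios of 0.518, 0.392 and 0.442. The GC box motif GGGCGG was searched on both strands of these windows and occurred 5 times in TIMP3, 2 times in TIMP1 and 1 time each in TIMP4 and MMP14. This motif contains a CpG, and 45.0% of all promoters hold it. The AP-1 motif TGAGTCA, present in 4.95% of promoters, and TATAAA, present in 11.5%, were in none of the 4 windows. Methylation itself was not measured in these libraries.

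**Figure D1:**
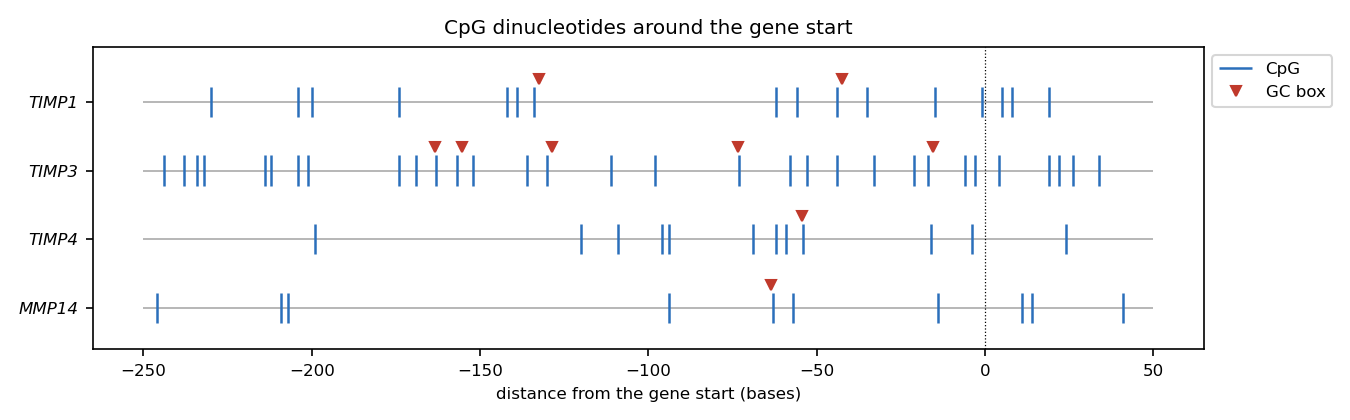
Positions of CpG dinucleotides (vertical bars) and of GC box motifs on either strand (triangles) from 250 bases before to 50 bases after the start of 4 member genes, with the distance from the gene start in bases on the horizontal axis. TIMP3 holds 31 CpGs in this window and MMP14 holds 10.

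TIMP3, an inhibitor that binds to the matrix, had no counted read in any library without DAC. Its only transcript in the table, ENST00000266085, spans 5 exons at chr22:32801705-32863041 (hg38, plus strand). No read was counted in any of the 3 untreated or the 3 ATRA libraries. With DAC, 788, 1345 and 1117 normalized reads were counted, and with DAC + ATRA 453, 641 and 533. Every library with DAC thus held many reads and every library without it none, and the DAC and DAC + ATRA groups did not overlap. The mean was 1083 ± 280 with DAC and 542 ± 94.4 with DAC + ATRA (SD, n = 3 each). Against a floor of 3 reads per library, taken at its highest normalized value in the group at 0, TIMP3 was at least 391-fold higher with DAC than in untreated cells, which is the comparison that chose it. It was at least 171-fold higher in DAC + ATRA than in ATRA. No test is given for this difference either, because TIMP3 was chosen for its rise with DAC and passed the filter on low values only through libraries with DAC. The fitted log2 fold change of 9.07 depends on the pseudocount and ran from 6.76 to 12.12 over the alternatives. The mean with DAC + ATRA was 50.1% of the mean with DAC alone, which is given without a test. As RNA was taken in bulk, more cells that express TIMP3 and more TIMP3 RNA per cell cannot be told apart.

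TIMP4, the inhibitor with the most restricted tissue distribution of the family, was also low in untreated cells. Its transcript ENST00000287814 has 5 exons at chr3:12153068-12158912 (minus strand). Normalized reads were 3.68, 6.37 and 2.77 in untreated cells and 131, 133 and 135 with DAC. They were 13.7, 14.6 and 19.1 with ATRA and 82.3, 83.2 and 63.0 with DAC + ATRA. The 4 groups did not overlap, in the order DAC, DAC + ATRA, ATRA and untreated. The ratio of the means for DAC against untreated cells was 31.2, although the untreated mean of 4.27 ± 1.87 (SD, n = 3) rests on few reads. ATRA alone raised TIMP4 3.70-fold, with a log2 fold change of 1.72 (SE 0.25, adjusted p = 3.76e-05). With DAC present the ATRA effect had the other sign, with a log2 fold change of -0.81 in DAC + ATRA against DAC that did not pass the threshold (adjusted p = 0.0289). The interaction, which is the log2 fold change of ATRA with DAC minus that without DAC, was -2.53 (SE 0.36, adjusted p = 1.21e-04). Untreated cells enter every interaction given here, so the limit from their time label holds for it too. The comparison that chose the family, DAC against untreated cells, is also part of it. DAC + ATRA was 4.82-fold above ATRA alone (log2 fold change 2.20, adjusted p = 3.23e-07).

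TIMP1 and TIMP2, the inhibitors that are widely expressed in other tissues, were counted in every library at low values. For TIMP1 the counted transcript was ENST00000456754 with 4 exons at chrX:47582408-47586023 (plus strand), whereas the form with 6 exons, ENST00000218388, has no base of its own and only 11 reads over all libraries. The level of TIMP1 may therefore be an underestimate. Its fold changes and tests are those of the counted transcript and may not hold for the form with 6 exons. TIMP1 had 23.9, 24.6 and 24.9 normalized reads in untreated cells, 31.3, 37.0 and 37.8 with DAC, 24.3, 15.5 and 20.0 with ATRA and 42.5, 52.6 and 39.5 with DAC + ATRA. The DAC + ATRA libraries were above those of every other group, and the ATRA and untreated groups overlapped. TIMP1 was 2.25-fold higher in DAC + ATRA than in ATRA (log2 fold change 1.15, SE 0.22, adjusted p = 2.65e-04). Neither ATRA against untreated cells (log2 fold change -0.31, adjusted p = 0.434) nor DAC + ATRA against DAC (0.33, adjusted p = 0.369) passed the threshold.

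TIMP2, which besides its inhibitory role takes part in the activation of pro-MMP2 by MMP14, is represented by ENST00000262768 with 5 exons at chr17:78852977-78925387 (minus strand). It had 22.1, 26.4 and 14.8 normalized reads in untreated cells, 48.6, 35.1 and 64.7 with DAC, 15.8, 41.0 and 12.5 with ATRA and 48.8, 35.8 and 45.7 with DAC + ATRA. Library 8 of the ATRA group was apart from its replicates and overlapped the DAC + ATRA group. With all libraries, the log2 fold change in DAC + ATRA against ATRA was 1.06 (SE 0.35, adjusted p = 0.0183), which missed the threshold. Without library 8 it was 1.55 with an adjusted p of 2.23e-04, and without library 9 it was 0.73 with an adjusted p of 0.104. With the transcripts of TIMP2 summed it fell to 0.39 (adjusted p = 0.114), and with no filter on low values it passed the threshold (adjusted p = 0.00603). A TIMP2 transcript outside the protein-coding set, the retained intron form ENST00000592761, carried 607 of the 1026 TIMP2 reads. Its mean was 47.4 ± 3.90 in untreated cells and 45.1 ± 12.1 in DAC, against 51.1 ± 11.7 in ATRA and 52.8 ± 3.10 in DAC + ATRA (SD, n = 3 each), and all groups overlapped. In a fit over all transcripts its log2 fold change in DAC + ATRA against ATRA was 0.07 with a 95% interval from -0.37 to 0.51 (adjusted p = 0.825). The remaining 13 transcripts with reads that do not lead their gene had between 2 and 65 reads each over the 12 libraries, and 9 transcripts had none.

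MMP9, the secreted gelatinase B, is read from ENST00000372330 with 13 exons at chr20:46008908-46016561 (plus strand). It had 19.3, 12.7 and 10.2 normalized reads in untreated cells and 23.2, 23.7 and 10.8 with ATRA, against 1278, 1409 and 1497 with DAC and 749, 898 and 770 with DAC + ATRA. The untreated and ATRA groups overlapped, whereas the DAC and DAC + ATRA groups did not overlap with them or with each other. MMP9 was 41.9-fold higher in DAC + ATRA than in ATRA (log2 fold change 5.39, SE 0.24, adjusted p = 2.85e-12). For DAC against untreated cells the ratio of the means was 99.1.

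MMP14, the membrane-type enzyme that activates pro-MMP2 at the cell surface, is read from ENST00000311852 with 10 exons at chr14:22836585-22847758 (plus strand). It had 49.6, 68.3 and 75.7 normalized reads in untreated cells, 26.4, 45.5 and 56.6 with ATRA, 1335, 1469 and 1464 with DAC and 556, 735 and 618 with DAC + ATRA. As with MMP9, the 2 groups with DAC were separate from the others and from each other. MMP14 was 14.9-fold higher in DAC + ATRA than in ATRA (log2 fold change 3.92, SE 0.21, adjusted p = 3.62e-11). It was the member that passed the threshold in DAC + ATRA against DAC, where it fell to 44.7% of the mean with DAC alone (log2 fold change -1.17, SE 0.21, adjusted p = 5.97e-04). MMP9 had a log2 fold change of -0.79 in that comparison (adjusted p = 0.0302), which passed the threshold in edgeR, in DESeq2, with a pseudocount of 5 and in limma on only the groups compared. Library 9 of the ATRA group decided several calls of these genes. Without it, MMP9 in ATRA against untreated cells moved from a log2 fold change of 0.39 (adjusted p = 0.338) to 0.74 (adjusted p = 0.00771) and MMP14 from -0.62 (adjusted p = 0.0585) to -0.85 (adjusted p = 0.00738). The interaction of MMP9 moved from -1.19 (adjusted p = 0.0565) to -1.54 (adjusted p = 4.43e-04), although it also passed in DESeq2 with all libraries (adjusted p = 0.0059), and its adjusted p in DAC + ATRA against DAC became 0.00153.

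MMP25, a metalloproteinase with a glycosylphosphatidylinositol anchor that is typical of leukocytes, is read from ENST00000336577 with 10 exons at chr16:3046561-3060726 (plus strand). It had 66.2, 71.9 and 63.7 normalized reads in untreated cells, 136, 132 and 97.4 with ATRA, 323, 263 and 325 with DAC and 291, 273 and 222 with DAC + ATRA. The ATRA libraries were all above the untreated libraries, and the DAC and DAC + ATRA groups overlapped. ATRA raised MMP25 1.81-fold over untreated cells (log2 fold change 0.83, SE 0.15, adjusted p = 5.60e-04). It was 2.15-fold higher in DAC + ATRA than in ATRA (log2 fold change 1.10, SE 0.15, adjusted p = 5.13e-06). The log2 fold change in DAC + ATRA against DAC was -0.21 (adjusted p = 0.401), and the interaction was -1.05 (SE 0.22, adjusted p = 0.00579). That interaction call was lost when any of 10 libraries was left out, with an adjusted p of up to 0.0274, and was kept without library 5 or library 9.

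MMP2, the secreted gelatinase A, is read from ENST00000219070 with 13 exons at chr16:55479198-55506691 (plus strand). Its values were 20.2, 16.4 and 25.9 normalized reads in untreated cells, 25.9, 15.6 and 59.8 with DAC, 14.8, 25.5 and 20.8 with ATRA and 21.7, 17.9 and 18.5 with DAC + ATRA. All groups overlapped, and the DAC mean of 33.8 ± 23.1 (SD, n = 3) was raised by library 6. No test of MMP2 passed the threshold, with a log2 fold change of -0.04 in DAC + ATRA against ATRA (95% interval from -0.78 to 0.70, adjusted p = 0.937).

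**Figure D2:**
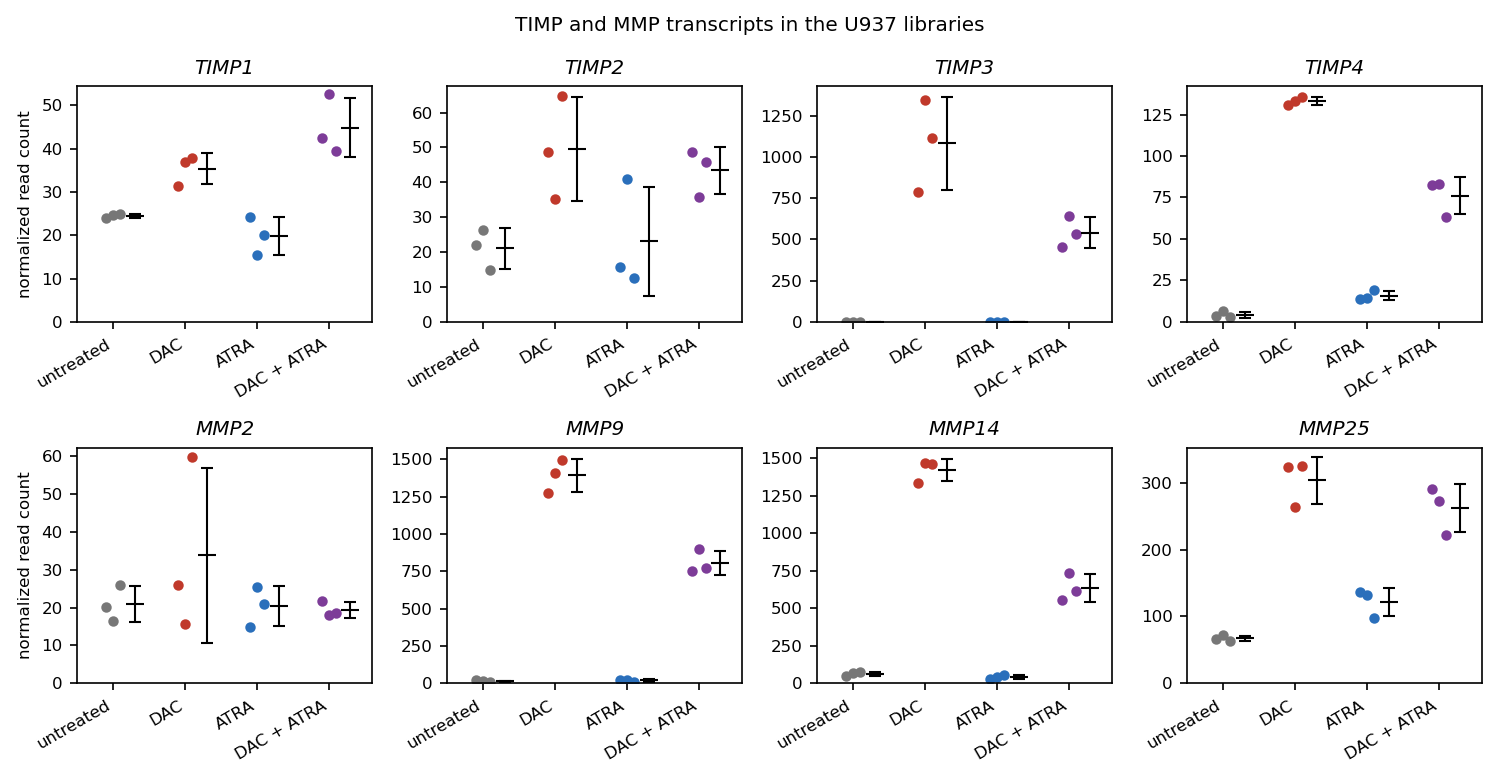
Normalized read counts of the leading transcript of each member in the 12 libraries, on a linear axis from 0 that differs between panels, with each library as a point and the mean ± SD of the 3 libraries of a group beside them. All genes but TIMP2 and MMP2 are higher in each library with DAC than in each library without it.

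Per kilobase of exon, the levels of the 3 members compared differed in order between the groups, with the limit from the unknown strand setting. With DAC, MMP9 had 597 ± 47.2, TIMP3 236 ± 60.9 and TIMP4 112 ± 1.96 normalized reads per kilobase (SD, n = 3 each). With DAC + ATRA the levels per kilobase were 345 ± 34.4 for MMP9, 118 ± 20.5 for TIMP3 and 63.8 ± 9.53 for TIMP4. The ranges of the 3 genes did not overlap in either group. In ATRA-treated cells TIMP4 with 13.2 ± 2.44 was above MMP9 with 8.24 ± 3.12, and TIMP3 was at 0. In untreated cells the ranges of MMP9 (4.35 to 8.26) and TIMP4 (2.32 to 5.34) overlapped, so that their order is not resolved.

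To ask what DAC changed in cells that also received ATRA, DAC + ATRA was compared with ATRA. Of the 7 members other than TIMP3, 5 passed the threshold and all 5 were higher, namely TIMP1, TIMP4, MMP9, MMP14 and MMP25. Of all 9016 tested transcripts, 34.8% passed in either direction and 25.9% were higher. All 8 members had passed the filter on low values, and the 7 tested did so without the libraries with DAC too. The shares over all transcripts include transcripts that passed it only through libraries with DAC. In DAC against untreated cells, where no member was tested, 39.3% of all transcripts passed. ATRA alone was compared with untreated cells for 7 members, of which 2 passed (TIMP4 and MMP25), against 9.14% of all transcripts. DAC + ATRA was compared with DAC for the same 7 genes, and 1 passed (MMP14), against 11.3% of all transcripts. In the test of the interaction 2 of the 7 passed (TIMP4 and MMP25), against 2.46%. With counts as small as these, and with members picked for an earlier result, no more than the values of the single genes is read from them.

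**Figure D3:**
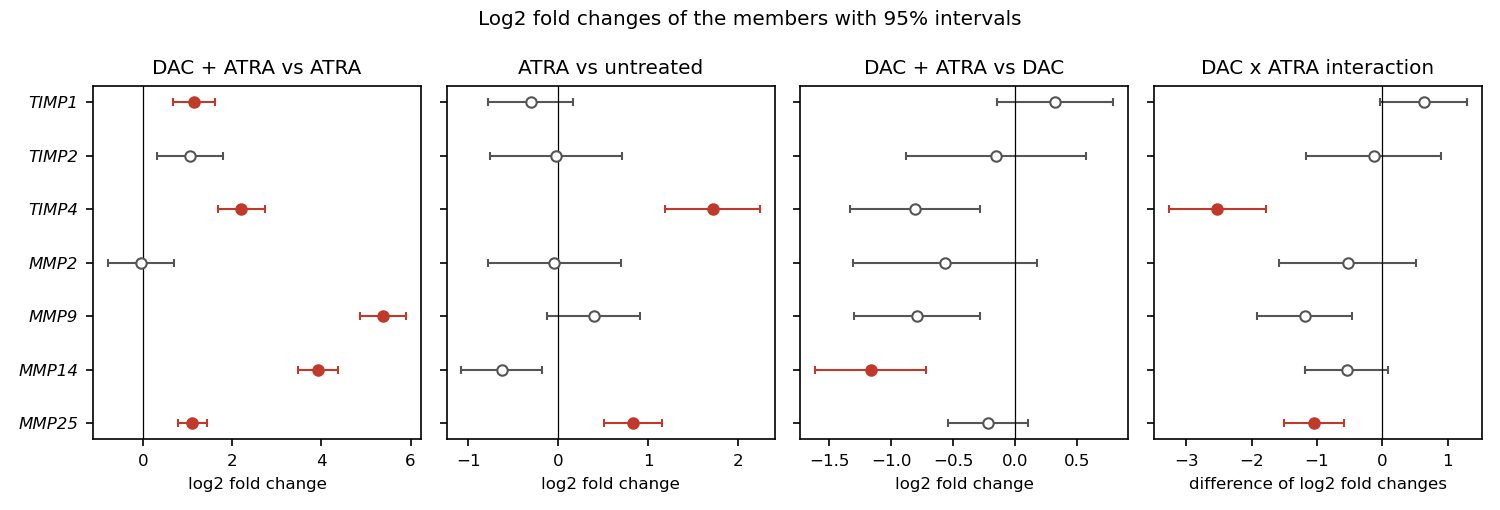
Log2 fold changes of the members with their 95% intervals from the limma fit in 4 comparisons, each on its own horizontal scale, with filled red points for an adjusted p under 0.01. TIMP3, which was not tested, is left out, and TIMP4 at -2.53 has the lowest interaction value plotted.

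The direction of each of these calls was the same under every scaling tried, although the scaling moved the background. For DAC + ATRA against ATRA, the authors' size factors put the median over all tested transcripts at a log2 fold change of 0.16, and 74.5% of the called transcripts were higher. Under 4 alternatives with another scaling that median lay between 0.03 and 0.07 and the share between 62.8% and 66.3%. For ATRA against untreated cells the share was 70.8%, and 54.8% to 65.3% under the other scalings. For DAC + ATRA against DAC it was 53.6%, and 47.3% to 58.7%, so that the direction with more calls depended on the scaling. For DAC against untreated cells it was 77.9%, and 58.9% to 65.5%, with a median of 0.22 that moved to between 0.02 and 0.09.

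Genes with the most similar pattern to each member were found by Pearson correlation of log2(normalized read count + 1) over the 12 libraries, among the leading transcripts of tested genes. The libraries form 4 groups of 3, so these coefficients mainly reflect the group means. For TIMP3 they were CTGF, KCNV2, POU3F3, U82695.5 and FAM178B, with r of 0.999 or more. Each of the 5 had a mean of 0 in untreated and in ATRA-treated cells, as TIMP3 did, with means from 24.9 in CTGF to 518 in U82695.5 with DAC. For TIMP4 they were CD82, PDE4A and DNASE1 (r from 0.982 to 0.987), and for MMP25 SASH3, DOK2 and LRFN2 (r from 0.980 to 0.982). MMP9 was most like HLA-DRB1, XKR8 and CBR3 (r from 0.995 to 0.996), and MMP14 most like RCOR2, FAM114A1 and GATA2 (r from 0.992 to 0.996). The weaker likenesses were those of TIMP1 to SQSTM1, CD48 and SOST (r from 0.950 to 0.965), of TIMP2 to TOPORS, ZNHIT2 and SLAIN2 (r from 0.957 to 0.962) and of MMP2 to RFTN1, CBX3 and PPIL3 (r from 0.823 to 0.859).

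The other proteases that TIMPs can inhibit were read from 3 lists. Because reads on shared bases may be uncounted, a gene in any list that missed the filter is not shown to be silent. In these and the lists that follow, genes that passed the filter only through libraries with DAC had to be higher with DAC, so that for DAC + ATRA against ATRA their values are given without a test. Of all tested transcripts, 34.8% passed in this comparison. The shares and the median given for all tested transcripts in it still include transcripts of that kind, unlike the counts of the lists. Of 19 further MMP genes, 3 passed the filter and 5 had no reads on any transcript. Both genes tested, MMP15 and MMP7, passed the threshold. The membrane-type MMP15 rose with a log2 fold change of 2.25 (adjusted p = 2.92e-11), from a mean of 452 ± 105 normalized reads with ATRA to 2117 ± 158 with DAC + ATRA. The interstitial collagenase MMP1, not tested, had 0.607 ± 1.05 with ATRA and 8.58 ± 2.21 with DAC + ATRA, which is few reads. Matrilysin, MMP7, fell with a log2 fold change of -1.11 (adjusted p = 0.00257), from 30.4 ± 11.2 to 13.0 ± 1.66, and that call was lost without library 7 or library 11. Of the 13 ADAM genes, which encode membrane-anchored sheddases and related proteins, 4 were tested and 2 passed. ADAM19 rose by 3.66 on the log2 scale (adjusted p = 3.43e-09), from 66.9 ± 20.7 to 834 ± 77.9, and ADAM28 by 2.16 (adjusted p = 8.69e-07), from 21.1 ± 6.59 to 95.1 ± 2.84. ADAM10 and ADAM17, both sheddases, had log2 fold changes of 0.43 and 0.24 and did not pass. Of the 19 ADAMTS genes, secreted proteases with thrombospondin motifs, 4 were tested and 3 passed, all higher. They were led by the aggrecanase ADAMTS4 with a log2 fold change of 5.43 (adjusted p = 8.49e-11), from 13.2 ± 4.53 to 590 ± 40.5. ADAMTS7 rose by 4.35 (adjusted p = 1.85e-13). ADAMTS8, not tested, had no read in any ATRA library and 21.3 ± 8.36 with DAC + ATRA. The lowest of them was ADAMTS15 with 3.14 (adjusted p = 7.58e-13), from 122 ± 20.3 to 1081 ± 121.

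In ATRA against untreated cells, 1 of 3 further MMPs, 2 of 4 ADAM and 0 of 4 ADAMTS genes passed the threshold, beside 9.14% of all transcripts. Here and below, ADAMTS8, SPOCK2 and NID1 are left out of the counts for this comparison, because they had no reads in either group and could not pass. ADAM19 had a log2 fold change of 5.73 over untreated cells (adjusted p = 2.52e-11), from 0.308 ± 0.533 to 66.9 ± 20.7, and ADAM28 of 1.72 (adjusted p = 7.14e-05). MMP1 fell with a log2 fold change of -1.84 (adjusted p = 0.00721), a call that rests on a mean of 4.27 normalized reads and was lost under 5 other settings and when any of 5 libraries was left out, with an adjusted p of up to 0.0841 and 0.0514. For the 4 ADAMTS genes the lowest limma adjusted p was 0.0665, and their log2 fold changes lay between -0.94 and 0.44. In DAC + ATRA against DAC, where 11.3% of all transcripts passed, ADAM19 was higher (log2 fold change 2.40, adjusted p = 5.35e-06) and MMP15 was lower (-0.53, adjusted p = 0.00888). The MMP15 call was lost with a pseudocount of 0.5 (adjusted p = 0.0105) and when any of 9 libraries was left out, with an adjusted p of up to 0.0513. MMP1, which passed the filter only through the libraries with DAC alone, was not tested here and had 34.7 ± 14.6 with DAC.

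Of 27 activators, binding partners and other inhibitors of the family, 7 passed the filter and 3 had no reads on any transcript. Of the 5 tested in DAC + ATRA against ATRA, 2 rose and 1 fell, beside 34.8% of all transcripts that passed. PLAUR, the urokinase receptor, rose by 1.47 on the log2 scale (adjusted p = 3.19e-05), and LRP1, an endocytic receptor, by 2.32 (adjusted p = 2.79e-06). A2M, the plasma protease inhibitor alpha-2-macroglobulin, and SPOCK2 were not tested, with means of 7.39 ± 2.28 and 0 normalized reads in ATRA and of 199 ± 29.2 and 14.4 ± 4.64 in DAC + ATRA. CD44, a cell surface docking site of MMP9, fell with a log2 fold change of -0.41 (adjusted p = 0.00335), from 3686 ± 464 to 2768 ± 108, and was no longer past the threshold with only the groups compared (adjusted p = 0.0118) or without library 7, 8, 10 or 11. RECK, a membrane-anchored inhibitor of MMPs, had a log2 fold change of -0.23 that did not pass (adjusted p = 0.0912). With ATRA alone, only A2M passed the threshold, 1 of 6 beside 9.14% of all transcripts, with a rise of 1.91 (adjusted p = 3.29e-05), although this call was lost in DESeq2 (adjusted p = 0.012). CD44 alone passed in DAC + ATRA against DAC, 1 of 6 tested beside 11.3%, and it fell with a log2 fold change of -0.79 (adjusted p = 1.22e-05).

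Matrix proteins, the substrates of these enzymes, were read from a list of 29 genes, of which 10 passed the filter and 6 had no reads on any transcript. Of the 6 tested in DAC + ATRA against ATRA, 5 rose, beside 34.8% of all transcripts that passed and 25.9% that were higher. COL4A2 rose by 3.11 on the log2 scale (adjusted p = 3.45e-09) and SPARC by 2.59 (adjusted p = 2.22e-08). COL4A1, a basement membrane collagen and a substrate of gelatinases, rose by 1.57 (adjusted p = 8.77e-09) and COL1A1, a chain of fibrillar collagen, by 1.49 (adjusted p = 9.94e-07). THBS1, an adhesive glycoprotein, FBLN1, NID1 and LAMA5 were not tested, and THBS1 had 9.68 ± 5.83 normalized reads with ATRA and 235 ± 27.1 with DAC + ATRA. With ATRA alone 3 of 9 passed and all 3 rose, beside 9.14% of all transcripts that passed in either direction. Of all 9016 transcripts, 583 passed and were higher. The 3 genes were COL4A2, which rose by 5.24 (adjusted p = 4.68e-12), from 0.922 ± 0.924 to 65.8 ± 3.35, THBS1 by 2.91 (adjusted p = 2.74e-05) and COL1A1 by 1.33 (adjusted p = 1.98e-05). THBS1 went from 0.306 ± 0.531 in untreated cells to 9.68 ± 5.83 with ATRA, which is few reads. In DAC + ATRA against DAC, 3 of 10 rose and 3 fell, beside 11.3% of all transcripts that passed in either direction. THBS1 rose by 3.89 (adjusted p = 6.16e-07) and COL4A2 by 2.18 (adjusted p = 2.86e-06), whereas the laminin chain LAMC1 fell with a log2 fold change of -0.82 (adjusted p = 5.53e-06) and COL4A1 with -0.75 (adjusted p = 5.44e-04). COL1A1 fell with -0.73 (adjusted p = 0.00783). That call was lost with no filter on low values (adjusted p = 0.0165) and when any of 6 libraries was left out, with an adjusted p of up to 0.0549.

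The medians over the tested genes of these lists in DAC + ATRA against ATRA were log2 fold changes of 1.29 for ADAM, 3.75 for ADAMTS, 0.07 for the activators and partners and 1.94 for the matrix proteins, beside 0.16 for all tested transcripts. With the genes that were not tested, which had to be higher, the last 3 lists had medians of 4.35, 1.47 and 2.45. No median is given for the 2 further MMPs, which went in opposite directions. In DAC + ATRA against DAC the medians over the tested genes were 0.27, 0.20, -0.19 and -0.28, beside -0.04.

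**Figure D4:**
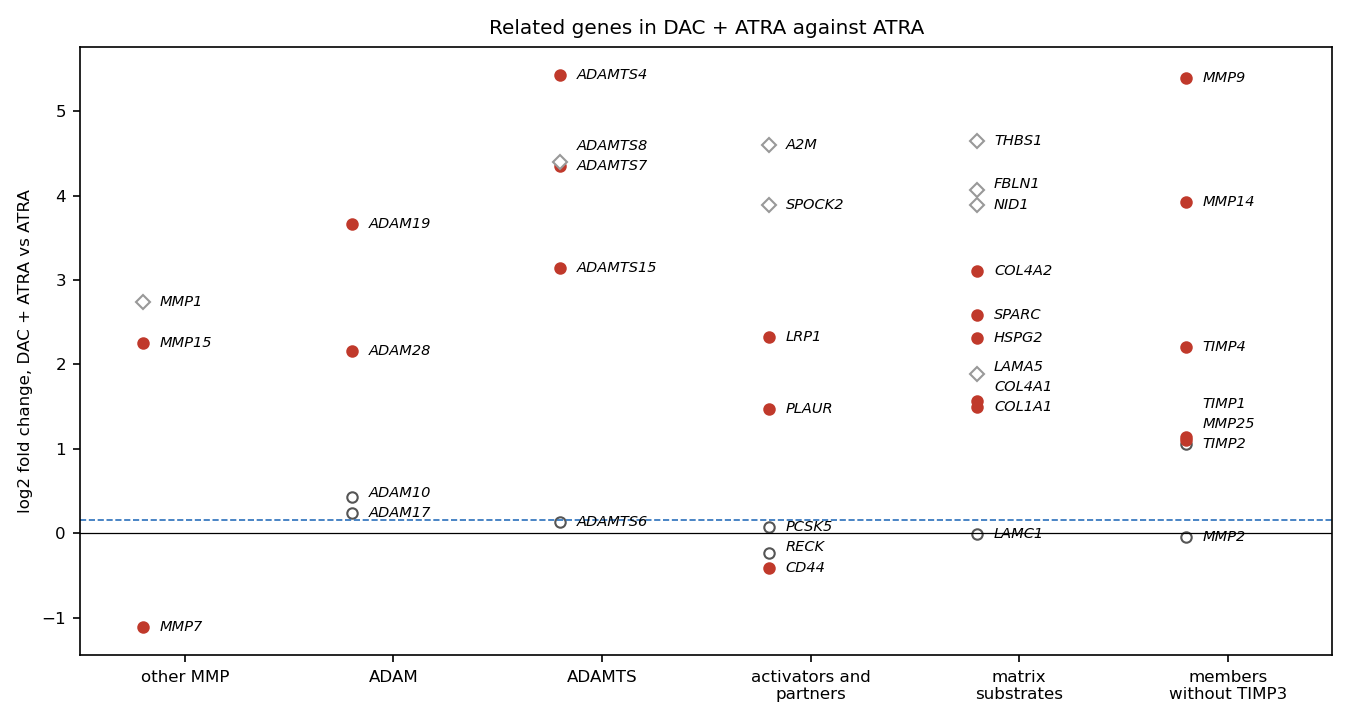
Log2 fold changes in DAC + ATRA against ATRA for the genes past the filter in 5 related lists and for the members other than TIMP3, with 1 point for each gene, filled red for an adjusted p under 0.01, grey diamonds for genes that passed the filter only through libraries with DAC and were not tested, and the dashed line at the median of all tested transcripts (0.16). MMP9 at 5.39 and ADAMTS4 at 5.43 are the highest points, and MMP7 at -1.11 is the lowest.

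Several members lie within or across from other genes on the opposite strand. The libraries were made to keep strand, but it is not stated whether the counting used it. TIMP3 lies inside SYN3, whose 13 transcripts together had no read in untreated cells, 59.5, 117 and 75.7 normalized reads with DAC, 2.11, 0.910 and 0 with ATRA and 81.4, 96.8 and 90.2 with DAC + ATRA. SYN3 thus was also counted almost only with DAC, but unlike TIMP3 its DAC and DAC + ATRA groups overlapped. None of the 4597 exonic bases of TIMP3 lies in an annotated exon of the opposite strand. Unspliced SYN3 RNA would still span TIMP3 exons, and whether reads from it entered the TIMP3 values was not tested. Over the 12 libraries no read was counted for SYN1, the host of TIMP1, and 1 for SYN2, the host of TIMP4. As reads on shared bases may be uncounted, such values do not show that a gene is silent. The exons of MMP25 share 1021 bases with exons of the opposite strand, where MMP25-AS1 had a mean of 288 ± 15.0 in untreated cells and 278 ± 40.4 in DAC, against 326 ± 18.6 in ATRA and 184 ± 31.9 in DAC + ATRA (SD, n = 3 each). These means were in another order than those of MMP25. Whether reads of the antisense gene entered the MMP25 values was not tested. Exons of MMP9 share 430 bases, TIMP2 367 and TIMP4 170 with exons of the opposite strand.

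Markers of other cell types moved with the same treatments. The summed level of 8 fibroblast markers was 33.1, 25.5 and 47.1 normalized reads in untreated cells, 663, 713 and 663 with DAC, 118, 123 and 112 with ATRA and 492, 561 and 519 with DAC + ATRA. PDGFRB was the most abundant of them, 3 had a mean of at least 10, and COL3A1 and DCN were at 0 in all libraries. THY1, LUM and COL1A2 were counted only with DAC (means of 142, 25.4 and 4.74) and DAC + ATRA (83.7, 12.6 and 1.42), and PDGFRA had a mean of 23.8 with DAC and of at most 1.43 elsewhere. The 6 endothelial markers summed to 133, 145 and 163 in untreated cells, 2449, 2472 and 2414 with DAC, 317, 299 and 257 with ATRA and 2916, 3263 and 2997 with DAC + ATRA. PECAM1, which myeloid cells also express, made up 97.2% of that sum, TEK was at 0 and CDH5 was at 0 in all but the DAC + ATRA group. VWF had means of 8.87 in untreated cells and 10.1 with ATRA, against 66.0 with DAC and 70.4 with DAC + ATRA, and KDR was counted only with DAC (3.68) and DAC + ATRA (3.78). The 5 lymphoid markers summed to 142, 127 and 129 in untreated cells, 529, 517 and 508 with DAC, 348, 369 and 226 with ATRA and 1302, 1326 and 1390 with DAC + ATRA. CD79A made up 99.5% of that sum, and CD3E was at 0. The 5 epithelial markers summed to at most 0.910 in any library without DAC and to between 8.65 and 23.4 with DAC or DAC + ATRA, led by KRT8, with KRT18 and CDH1 at 0. The 6 erythroid markers held reads in KLF1 alone, which ran from 58.1 to 123, and the globin genes were at 0. The 10 myelomonocytic markers, of which MPO made up 83.5%, summed to 56407, 59805 and 53282 in untreated cells, 39405, 25750 and 33496 with DAC, 41539, 43726 and 31481 with ATRA and 23739, 24143 and 22688 with DAC + ATRA. Between untreated cells and DAC + ATRA the means of SPI1 (130 ± 10.9 and 120 ± 14.3) and FCGR1A (161 ± 22.7 and 132 ± 14.1) were also lower. Means rose from 164 ± 14.5 to 1097 ± 124 for LYZ, 202 ± 14.0 to 2735 ± 110 for ITGAM and 3720 ± 254 to 4462 ± 42.5 for CD4. The part of these shifts in the values of the TIMP and MMP genes was not tested. As reads on shared bases may be uncounted, a marker at 0 is not shown to be silent.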

How the data were processed

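RNA-seq of 12 U937 libraries was analysed, 3 for each of 4 groups. STAR (alignment to hg38), htseq-count (reads per transcript) and DESeq2 (size factors) were used by the authors. Versions, counting mode and strand setting were not given in the sources used here. The deposited signal values are read counts divided by a size factor for each library. 100% of them were whole multiples of a step for each library, within 0.01 of a read, so that the reads were recovered, although for library 6 the step is too close to 1 for the automatic check to judge. Replicate pairs differed by more than sampling noise (2.05 to 8.19 as chi-square per degree of freedom, 12 pairs). Columns were matched to groups by name. Transcripts were matched to GENCODE 44 by identifier or symbol, and 90879 were taken as protein-coding, 15414 of them by symbol only.

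Protein-coding transcripts were kept where 3 or more libraries reached 10 normalized reads, and were tested with limma 3.58.1 (R 4.3.3, lmFit and eBayes with trend and robust) on log2(normalized read count + 1), all 12 libraries in a single fit, with Benjamini-Hochberg adjustment and a threshold of 0.01. Where no other tool is named, an adjusted p comes from this fit. The script was tested on simulated data. Alternatives were edgeR 4.0.16 and DESeq2 1.42.0 on the recovered reads, other scalings, pseudocounts, filters and thresholds, all transcripts, sums per symbol, only the groups compared, and each library left out in turn. The numbers of transcripts that edgeR and DESeq2 called are given with the alternatives. A fold against a group at 0 uses a floor of 3 reads per library, which covers counting error only.

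Members, gene lists and tests were chosen with earlier results of these data known. Named genes were the 8 members, the 5 genes most like TIMP3 and 3 most like each other member, and up to 2 of the highest and 2 of the lowest called genes of each list and comparison. Genes outside that rule, such as ADAM10, ADAM17, RECK, LAMA5 and NID1, were named after their values were seen. LRP1 and SPARC were also named after that, and came under the rule for DAC + ATRA against ATRA once genes without a test were left out. Tested genes without a name are given in counts, and 2 further genes were taken out of the lists and are not reported here. The planned test of TIMP3, and tests of DAC + ATRA against ATRA for genes that passed the filter only through libraries with DAC, were dropped after the values were seen. Promoters are from RefSeq. Tables were made in Python with pandas and numpy.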

Additional observations from a re-analysis of the deposited data

Results flagged for a closer look

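For 2 members, the test of the interaction between ATRA and DAC in limma passed the threshold. Untreated cells enter this contrast, so that time and treatment cannot be told apart in it if the labels hold. DAC against untreated cells, the comparison behind the choice of the family, enters it too, which limits how these calls can be read. TIMP4 had an interaction of -2.53 on the log2 scale (adjusted p = 1.21e-04), with a log2 fold change for ATRA of 1.72 without DAC and -0.81 with it. MMP25 had an interaction of -1.05 (adjusted p = 0.00579), with 0.83 without DAC and -0.21 with it, a call that was lost when any of 10 libraries was left out, with an adjusted p of up to 0.0274.

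Among the genes of the related lists the same test passed the threshold for 5 of 29, beside 2.46% of all tested transcripts. The 29 include MMP1, ADAMTS8, A2M, SPOCK2, LAMA5, FBLN1, NID1 and THBS1, which passed the filter only through libraries with DAC. These are not among the 5, and ADAMTS8, SPOCK2 and NID1 had no reads in untreated or ATRA-treated cells. Nothing is therefore read from the count itself. The ADAM protease ADAM19 had an interaction of -3.33 (adjusted p = 4.10e-05), and the collagen chains COL4A2 and COL1A1 had -3.06 (adjusted p = 2.13e-05) and -2.06 (adjusted p = 4.10e-05). The laminin chain LAMC1 had -0.66 (adjusted p = 0.00823). This call was lost with all transcripts (adjusted p = 0.0102) and when any of 10 libraries was left out, with an adjusted p of up to 0.035. The basement membrane proteoglycan HSPG2 had 1.09 (adjusted p = 4.86e-04), the interaction with the other sign. TIMP3 was not tested for an interaction, since the comparison that chose it enters that contrast. Single outlying samples were not tested for. Of the 12 pairs of replicates, libraries 8 and 9 of the ATRA group differed most (8.19 as chi-square per degree of freedom).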

How the results depend on the processing

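No paired analysis was possible because the columns carry running numbers, not the replicate numbers of the labels. The replicate block was therefore not run. Counts of calls moved by more than 1.5 times under few alternatives, and all others were within that factor. With all transcripts in place of the protein-coding set, more were tested (19373) and the calls were 5688 in DAC + ATRA against ATRA (3136 with the protein-coding set), 1351 in ATRA against untreated cells (824), 1699 in DAC + ATRA against DAC (1022) and 6485 in DAC against untreated cells (3547). With an adjusted p under 0.05 they were 1317 in ATRA against untreated cells, 1618 in DAC + ATRA against DAC and 456 for the interaction (222 at 0.01). DESeq2 called 341 interactions, and the cause was not tested. Calls with edgeR and TMM and with DESeq2 were 3394 and 3249 in DAC + ATRA against ATRA, 988 and 998 in ATRA against untreated cells, 1323 and 1288 in DAC + ATRA against DAC and 3898 and 3670 in DAC against untreated cells, and edgeR called 229 interactions.

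With each library left out in turn, calls ran from 2628 to 3153 in DAC + ATRA against ATRA, 622 to 1024 in ATRA against untreated cells, 751 to 1255 in DAC + ATRA against DAC, 148 to 483 for the interaction and 3001 to 3876 in DAC against untreated cells. The 483 interactions were found without library 9. The log2 fold change of TIMP3 in DAC + ATRA against ATRA ran from 8.94 to 9.19 without single libraries and is no test.

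Of 693 values of the members other than TIMP3 under the alternatives, 645 kept their direction and side of the threshold, 10 fell below it, 17 newly passed it, 3 passed only because the threshold was set to 0.05, and 18 changed sign. The 10 were all the MMP25 interaction without single libraries. The sign changes all concern TIMP2 and MMP2 in comparisons that did not pass the threshold, for which the cause was not tested. For TIMP2 in ATRA against untreated cells (-0.02) they were 0.10 with edgeR and TMM, 0.13 with edgeR and the DESeq2 size factors, 0.10 with DESeq2 and 0.0870 with sums per symbol, and -0.51 to 0.30 without single libraries. For TIMP2 in DAC + ATRA against DAC (-0.15) they were 0.0473 with sums per symbol and -0.37 to 0.0589 without single libraries, and the interaction ran from -0.46 to 0.36. For MMP2 in DAC + ATRA against ATRA (-0.04) they were 0.0405 with sums per symbol and -0.24 to 0.13 without single libraries, and in ATRA against untreated cells -0.21 to 0.16. In DAC + ATRA against DAC, the TIMP4 log2 fold change passed the threshold of 0.01 under 5 alternatives, with the lowest adjusted p at 0.00107, and did not pass it under the others, with an adjusted p of up to 0.0583, or up to 0.139 without single libraries. Of 869 values of the other named and tested genes, 46 fell below the threshold and none changed sign. Values under 10 normalized reads, as in untreated cells for TIMP4, rest on few reads, and levels of TIMP1, TIMP2, MMP2, MMP14 and MMP25 depend on the bases that could be counted.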

Other observations

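The ratios of the means of DAC + ATRA to untreated cells belong to no test here and are given as values. They were 57.3 for MMP9, 17.8 for TIMP4, 9.86 for MMP14, 3.90 for MMP25, 2.06 for TIMP2, 1.83 for TIMP1 and 0.931 for MMP2, and TIMP3 was at least 196-fold higher. For MMP2 the groups overlapped, and for the other 7 genes they did not.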
